A study of Mus musculus with 8 samples.

Results

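The genes examined here are markers of cardiac macrophages. They were *Adgre1*, *Csf1r*, *Mrc1*, *Cd163*, *Lyve1*, *Folr2*, *Timd4*, *Cbr2*, and *F13a1*, taken by symbol as 9 of the 16994 genes in the count table. The first pair marks macrophages in general and the other members are used as markers of resident or tissue-protective macrophages. The libraries came from WT mice and from TIGAR KO (TKO) mice, which lack *Tigar* in the whole body. All mice were male. Infarct, border, and remote zones were taken 4 weeks after a permanent ligation of the left anterior descending coronary artery, done at 16 weeks of age to cause myocardial infarction (MI). A normal left ventricle (LV) served as the reference, and the age and operation of those mice, the WT strain, and whether regions came from the same hearts are not given in the sources used here. Each genotype and region is 1 library, 8 in all, and the RNA of 3 mice was pooled for each infarct zone library.

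Resident cardiac macrophages are seeded before birth and renew themselves in the tissue, where they clear dying cells and debris, and they carry receptors such as LYVE1, TIM-4 (*Timd4*), and FOLR2. After MI, monocytes bearing CCR2 enter the injured wall and become macrophages, so the pan-macrophage genes *Adgre1* (F4/80) and *Csf1r* (the receptor for CSF1 and IL-34, on which macrophages depend for survival) read both populations together. CD163 takes up haemoglobin-haptoglobin complexes, CD206 (*Mrc1*) binds mannose-rich glycoproteins, LYVE1 binds hyaluronan, and TIM-4 binds phosphatidylserine on dying cells.

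The stretches in front of 4 members are shown because their levels moved in unlike ways: *Mrc1* was higher in the infarct zone than elsewhere, and *Cd163*, *Timd4*, and *Folr2* were not. Each is the 250 bases before a RefSeq transcript start on GRCm38.p6, written 5′ to 3′ along the gene's own strand, with the PU.1 box (GAGGAA, or TTCCTC when read from the other strand) in capitals. PU.1 (*Spi1*) is the factor that specifies macrophages.
Mrc1, chr2:14229164-14229413, plus strand: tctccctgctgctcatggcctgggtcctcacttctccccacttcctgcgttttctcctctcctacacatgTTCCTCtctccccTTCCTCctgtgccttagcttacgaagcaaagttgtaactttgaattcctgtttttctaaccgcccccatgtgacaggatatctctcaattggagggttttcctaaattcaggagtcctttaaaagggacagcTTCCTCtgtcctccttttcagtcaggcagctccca
Cd163, chr6:124304401-124304650, plus strand: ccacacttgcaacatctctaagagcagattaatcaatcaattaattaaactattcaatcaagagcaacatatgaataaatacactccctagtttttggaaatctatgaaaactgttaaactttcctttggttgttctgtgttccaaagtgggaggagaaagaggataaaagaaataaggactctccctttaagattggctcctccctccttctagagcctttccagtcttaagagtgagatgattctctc
Timd4, chr11:46810549-46810798, plus strand: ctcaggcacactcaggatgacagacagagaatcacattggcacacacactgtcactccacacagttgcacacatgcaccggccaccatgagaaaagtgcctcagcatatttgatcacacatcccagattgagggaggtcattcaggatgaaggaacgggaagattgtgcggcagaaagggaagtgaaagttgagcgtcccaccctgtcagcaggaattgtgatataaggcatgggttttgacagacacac
Folr2, chr7:101857191-101857440, minus strand: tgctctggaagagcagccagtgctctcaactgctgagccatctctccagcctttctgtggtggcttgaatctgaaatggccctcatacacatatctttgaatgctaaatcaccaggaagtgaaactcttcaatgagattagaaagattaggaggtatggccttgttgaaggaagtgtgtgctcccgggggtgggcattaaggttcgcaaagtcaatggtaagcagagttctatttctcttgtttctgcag
*Mrc1* had 3 matches and the other 3 windows had 0. Over all 8 windows listed for members, 3 (37.5%) held the box. The others that did belong to *Cbr2*, which passed as higher in the infarct zone, and to *F13a1*, which did not pass. These letters were found on either strand in 23.3% of the 32851 promoters searched. The short site of MAF factors (TGCTGA, also searched on both strands and held by 16.1% of promoters) had 2 matches for *Timd4*, 1 for *Folr2*, and 0 for the other pair. RefSeq starts were listed for 6 of the 9 members, and the last 22 bases of the *Mrc1* window are already transcribed in the GENCODE annotation. A match is a description of letters only.

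The libraries carried 27429240 to 33799249 estimated counts each. *Tigar* had 1066 to 2215 counts in the WT and 51 to 87 in the TKO libraries, so the targeted gene was low in every library labelled TIGAR KO. Cardiomyocyte markers (*Myh6*, *Tnnt2*, and 4 others) were at 14700 to 21400 summed CPM outside the infarct zone, at 4420 in the WT infarct zone and at 9860 in the TKO infarct zone. The infarct zone pair thus stood apart from the other 6 libraries and from each other, with TMM factors (library scaling that puts the typical gene at a ratio of 1) of 1.54 in WT and 1.26 in TKO against 0.866 to 0.956. Scaling by total counts alone shifted the median gene by -0.29 on the log2 scale for TKO over WT in the infarct zone, and by 0.85 in WT and 0.55 in TKO for infarct zone over LV. Levels below are TMM-scaled CPM, which give the count of a gene relative to the scaled total of its library. Intervals are exact 95% intervals that cover counting error only and no spread between mice, because each genotype and region is 1 library. They also take each count as a separate molecule, although copies made by PCR cannot be told from separate molecules here.

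All 9 members are protein-coding genes and were among the 12999 genes tested, which averaged 1 CPM or more over the libraries. Per kilobase of the longest annotated transcript, mean levels over the 8 libraries were 20 CPM for *Cbr2*, 13.9 for *Csf1r*, 12.9 for *F13a1*, 8.86 for *Lyve1*, 8.66 for *Folr2*, 8.31 for *Mrc1*, 7.91 for *Adgre1*, 4.23 for *Cd163*, and 0.731 for *Timd4*. Neighbours in this order had ranges that overlapped, from *Cbr2* (11.4 to 42.4) down to *Cd163* (2.53 to 5.92). *Timd4* (0.433 to 1.1) lay below *Cd163* in every library. Over libraries, the highest level of a member was 1.65 (*F13a1*) to 4.58 (*Adgre1*) times its lowest.

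**Figure D1:**
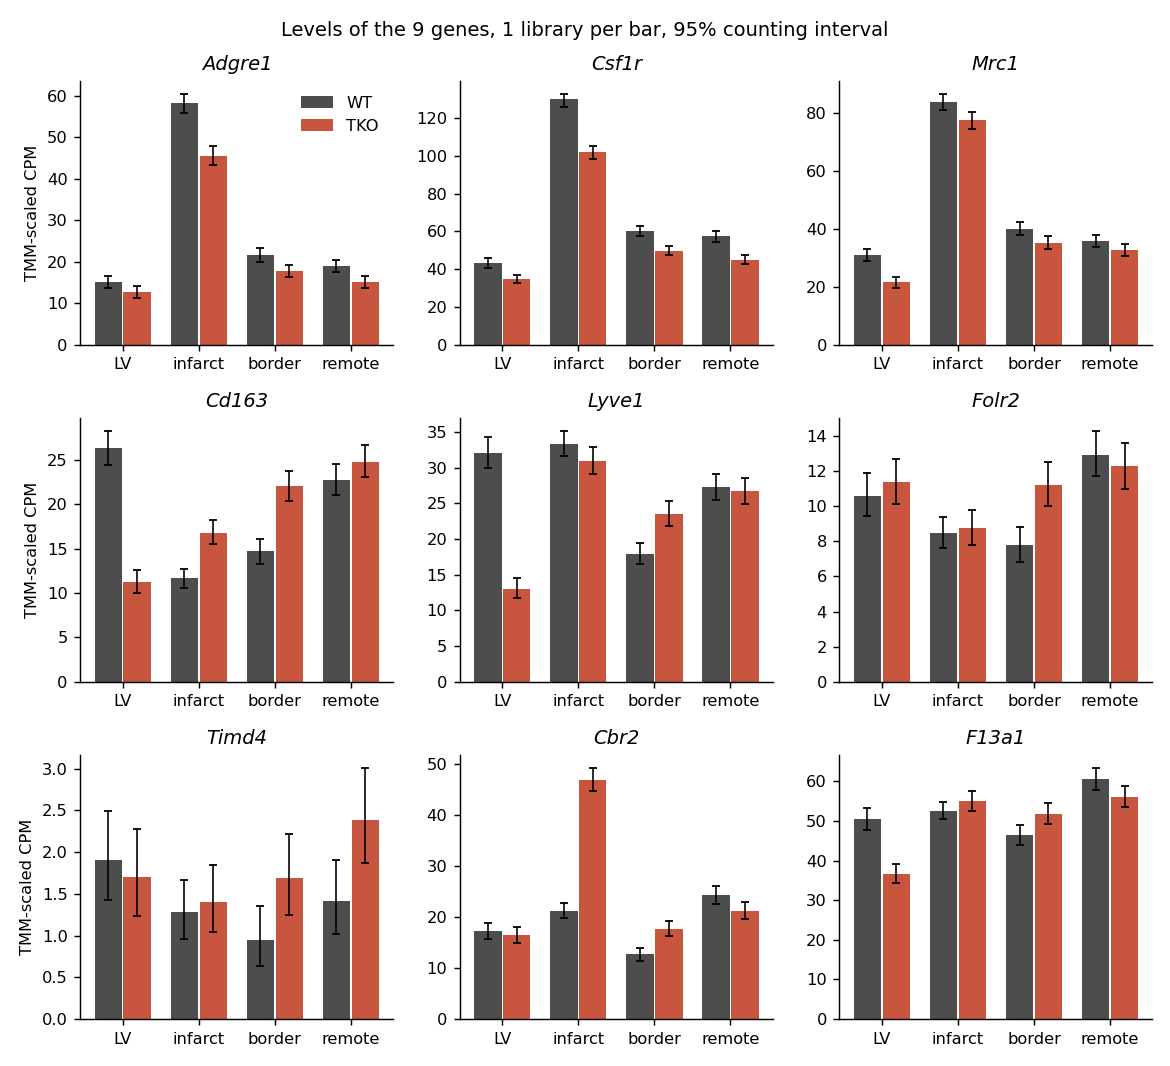
Levels of the 9 genes in each library, as TMM-scaled CPM (vertical axes, each from 0) by region (horizontal axes), with WT in grey and TKO in red. Each bar is 1 library and its error bar is the exact 95% counting interval. *Adgre1*, *Csf1r*, and *Mrc1* were highest in the infarct zone of both genotypes, *Cbr2* was highest in the TKO infarct zone (47 CPM), and *Cd163* (11.2 CPM) and *Lyve1* (13 CPM) were lowest in the TKO LV. The lowest levels of *Adgre1* (12.7 CPM), *Csf1r* (34.7), *Mrc1* (21.5), and *F13a1* (36.6) were in the TKO LV too.

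*Adgre1* (ENSMUSG00000004730, chromosome 17 of GRCm38 from 57358691 to 57483527) encodes the adhesion receptor F4/80. In WT it was at 15.1 CPM in the LV, and 58.2, 21.5, and 18.9 in the infarct, border, and remote zones, and in TKO at 12.7, 45.5, 17.7, and 15.1 in the same order. The level was lower in TKO than in WT in 4 of 4 regions, and both infarct zone libraries lay above all other libraries. TKO over WT ratios were 0.84 for the LV (interval, 0.725 to 0.974) and 0.799 for the remote zone (0.705 to 0.906), with the infarct zone at 0.783 (0.735 to 0.833) and the border zone at 0.827 (0.736 to 0.928).

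*Csf1r* (ENSMUSG00000024621, chromosome 18 from 61100598 to 61132149) had nearly the same profile. Its level in WT was 43.2 CPM in the LV, and 130, 60.3, and 57.3 in the infarct, border, and remote zones, against 34.7, 102, 49.8, and 45 in TKO. The ratios of TKO over WT, 0.803, 0.785, 0.826, and 0.786, were all below 1 by more than counting error, and *Adgre1* stayed at 32.9 to 44.9 counts per 100 *Csf1r* counts in every library. The ligands did not share this pattern: *Csf1* was at 44.2, 85.3, 49.0, and 49.8 CPM in WT and 40.8, 76.8, 54.8, and 55.9 in TKO, and TKO over WT across regions was 1.01 for *Csf1* (edgeR adjusted p = 0.942) and 0.948 for *Il34* (edgeR adjusted p = 0.792). Both ligands rose in the infarct zone against the other 3 regions, *Csf1* by 1.66-fold (edgeR adjusted p = 0.0013) and *Il34* by 1.77-fold (edgeR adjusted p = 0.00333).

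*Mrc1* (ENSMUSG00000026712, chromosome 2 from 14229392 to 14332057) was at 30.9 CPM in the WT LV, and 84, 40.1, and 35.8 in the infarct, border, and remote zones, and in TKO at 21.5, 77.5, 35.2, and 32.6. As for *Adgre1* and *Csf1r*, the infarct zone pair lay above all other libraries and TKO was lower in 4 of 4 regions, with ratios of 0.694 (0.622 to 0.773) in the LV and 0.876 to 0.922 in the zones after MI. Of its relatives, *Mrc2*, *Pla2r1*, and *Ly75* all rose in the infarct zone (3.34-, 1.91-, and 2.28-fold), as did 30.4% of all genes. Of these relatives, 0 of the 3 passed the test between genotypes.

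*Cd163* (ENSMUSG00000008845, chromosome 6 from 124304656 to 124330527) ran the other way in WT. Its WT level was 26.3 CPM in the LV, and 11.7, 14.7, and 22.7 in the infarct, border, and remote zones, whereas in TKO it was 11.2, 16.8, 22.1, and 24.8. The WT LV thus held the highest and the TKO LV the lowest level of all 8 libraries. TKO over WT was 0.427 in the LV (0.371 to 0.49), whereas the infarct zone gave 1.44 (1.28 to 1.63), the border zone 1.51 (1.33 to 1.7), and the remote zone 1.09 (0.984 to 1.21).

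*Lyve1* (ENSMUSG00000030787, chromosome 7 from 110850607 to 110863239) shared the low level in the TKO LV. It was at 32.1 CPM in the WT LV, and 33.4, 17.9, and 27.3 in the infarct, border, and remote zones, and in TKO at 13, 31, 23.5, and 26.7. The ratio of TKO over WT was 0.406 in the LV (0.357 to 0.46) and 1.31 in the border zone (1.17 to 1.47), and it was 0.927 and 0.979 in the infarct and remote zones, where the intervals reached 1.

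Whether the genotype difference in the LV departed from that in the 3 zones after MI was tested with 1 library per genotype for the LV. The departure was -1.64 on the log2 scale for *Cd163* (SE 0.222, edgeR adjusted p = 0.0541) and -1.38 for *Lyve1* (SE 0.228, edgeR adjusted p = 0.0773), and 84 of 12999 genes (0.646%) were called. Neither passed with edgeR, whereas both did with DESeq2 (adjusted p = 0.000718 and 0.00563, with 2.15% of genes called) and with total-count scaling. Over the alternatives, adjusted p lay between 0.000718 and 0.0604 for *Cd163* and between 0.00563 and 0.0837 for *Lyve1*. Of 14 marker lists of other cells, 5 had a summed level at least 2-fold lower in the TKO than in the WT LV and 0 had one at least 2-fold higher. The 4 adipocyte markers together were at 31.2 CPM in the WT LV and 0.772 in the TKO LV, and at 2.14 to 6.12 in the other 6 libraries, with 0 of them at a count of 0 in the WT LV and 1 in the TKO LV, and with 370 against 6 counts for *Adipoq* and 388 against 6 for *Cidec*. The 4 B cell markers summed to 8.5 CPM in the WT LV and 1.24 in the TKO LV (1 at a count of 0), and to 1.79 to 17.4 in the other 6 libraries. Mesothelial markers summed to 10.6 and 3.98 CPM, with 3 of 4 lower in TKO (*Upk3b*, 121 against 5 counts) and 1 higher with its interval above 1. Mast cell markers were at 3.39 and 1.62 CPM. Eosinophil markers were at 0.401 and 0.0386 CPM, which rest on only 11 and 1 summed counts. The part of these cells in the LV difference of *Cd163* and *Lyve1* was not tested.

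*Lyve1* is also carried by lymphatic endothelium. Of 7 lymphatic markers, 6 rose in the infarct zone (*Ccl21a* by 4.92-fold, *Mmrn1* by 4.36-fold) and *Prox1*, which cardiomyocytes also express, fell. Among all genes, 30.4% rose and 29.3% fell in that test. In the LV, 5 of the 7 were lower and 2 higher in TKO than in WT, with a median ratio of 0.895. Intervals lay below 1 for 2 of them (24.5% of all genes) and above 1 for 1 (26.1%). Those below were *Mmrn1*, at 5.11 CPM in the WT and 1.97 in the TKO LV (0.385, 0.274 to 0.535), and *Ccl21a* (0.801, 0.679 to 0.943). The 7 summed to 83.5 CPM in the WT and 102 in the TKO LV, of which *Prox1* gave 42.4 and 67.8. How much of the *Lyve1* signal came from lymphatic vessels was not tested.

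*Folr2* (ENSMUSG00000032725, chromosome 7 from 101839988 to 101857194), a folate receptor of resident macrophages, varied little. Its WT levels were 10.6 CPM in the LV, and 8.46, 7.79, and 12.9 in the infarct, border, and remote zones, and its TKO levels were 11.4, 8.76, 11.2, and 12.3. Only in the border zone was the genotype ratio away from 1 by more than counting error, at 1.44 (1.21 to 1.7). Per 100 *Csf1r* counts, *Folr2* was at 24.6 in the WT and 32.7 in the TKO LV but at 6.53 and 8.61 in the infarct zone.

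*Timd4* (ENSMUSG00000055546, chromosome 11 from 46810800 to 46844332) was the scarcest member, at 29 to 72 counts per library. In WT it was at 1.9 CPM in the LV, and 1.28, 0.941, and 1.41 in the infarct, border, and remote zones, and in TKO at 1.7, 1.4, 1.69, and 2.39. TKO over WT was 1.79 for the border (1.11 to 2.94) and 1.69 for the remote zone (1.14 to 2.53). The LV and infarct zone ratios, 0.895 and 1.1, were not distinguishable from 1 at this depth. Of 10 other genes for the recognition of phosphatidylserine and dying cells that passed the expression minimum, 9 rose in the infarct zone (among them *Mertk*, 2.24-fold, and *Axl*, 2.39-fold) and *Cd36*, abundant in cardiomyocytes, fell to 0.384. Among all genes, 30.4% rose and 29.3% fell. *Timd4* in the same test was at 0.823 (edgeR adjusted p = 0.443).

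*Cbr2* (ENSMUSG00000025150, chromosome 11 from 120729489 to 120732114), a carbonyl reductase, gave the largest genotype ratio above 1 among the members. Its WT levels were 17.2 CPM in the LV, and 21.2, 12.7, and 24.3 in the infarct, border, and remote zones, against 16.5, 47, 17.7, and 21.2 in TKO. The TKO infarct zone, with 1681 counts, stood above the other 7 libraries, which lay between 12.7 and 24.3 CPM. TKO over WT was 2.22 for the infarct zone (2.04 to 2.4), with 1.4 for the border zone (1.23 to 1.6), 0.957 for the LV (0.838 to 1.09), and 0.871 for the remote zone (0.783 to 0.97). Set against the other regions, this infarct zone ratio departed by 1.08 on the log2 scale (SE 0.294), which did not pass (edgeR adjusted p = 0.425), in a test that called 1 of 12999 genes (0.00769%), 288 with DESeq2, which gave no adjusted p for *Cbr2*, and 1018 at an unadjusted p under 0.05. Of 4 related reductases, *Cbr4*, *Cbr1*, and *Dcxr* fell and *Cbr3* rose in the infarct zone, where 29.3% of all genes fell and 30.4% rose. For TKO over WT in the infarct zone, 3 of the 4 had intervals above 1 (32.5% of all genes) and 0 below (28.8%). Their ratios ran from 0.846 to 1.66.

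*F13a1* (ENSMUSG00000039109, chromosome 13 from 36867178 to 37050244), the catalytic subunit of the transglutaminase that crosslinks fibrin, was the steadiest member. It was at 50.5 CPM in the WT LV, and 52.6, 46.4, and 60.5 in the infarct, border, and remote zones, and in TKO at 36.6, 55.1, 51.8, and 56.1. Only the TKO LV lay below 46 CPM, with a ratio of 0.725 (0.666 to 0.788). The ratios in the zones after MI were 1.05, 1.12, and 0.927. *Tgm2*, the tissue transglutaminase, passed neither test (infarct zone against the other regions, 0.824-fold, edgeR adjusted p = 0.119).

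**Figure D2:**
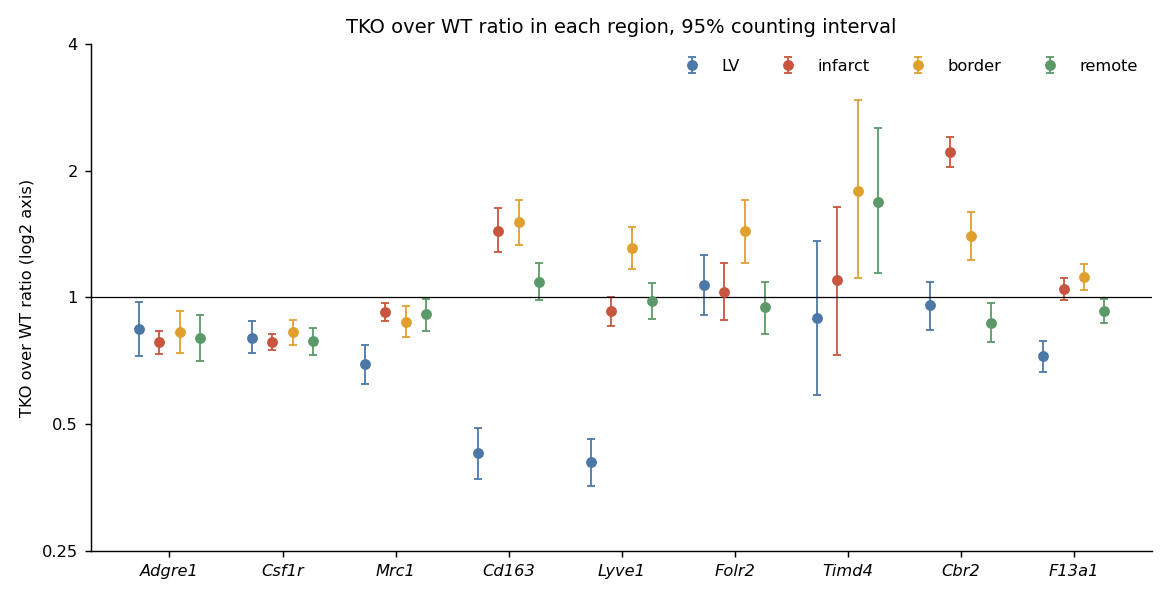
TKO over WT ratio (vertical axis, log2) of each gene in each region, 1 library per genotype, with exact 95% counting intervals. *Adgre1*, *Csf1r*, and *Mrc1* lay below 1 in all 4 regions, *Cd163* and *Lyve1* were lowest in the LV (0.427 and 0.406), and *Cbr2* was highest in the infarct zone (2.22).

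Set side by side, the LV ratios of TKO to WT had a median of 0.803 over the members, against 1.01 for all genes tested. Intervals lay below 1 for 6 members (24.5% of all genes) and above 1 for none (26.1%), and 2 members were at least 2-fold lower (3.56%). In the infarct zone the median was 1.03 (all genes, 1), with 3 intervals below 1 (28.8%), 2 above (32.5%), and 1 member at least 2-fold higher (2.42%). In the border zone the median was 1.31 (all genes, 0.998), and 6 members lay above 1 (24.5%) and 3 below (23.9%): those above were *Cd163*, *Lyve1*, *Folr2*, *Timd4*, *Cbr2*, and *F13a1*, and those below were *Adgre1*, *Csf1r*, and *Mrc1*. In the remote zone the median was 0.927 (all genes, 0.992), with *Timd4* above 1 (20.5%) and 5 members below (21.9%).

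With the 4 regions as blocks, no member passed edgeR's quasi-likelihood test between genotypes, in which 18 of 12999 genes (0.138%) were called, 342 (2.63%) with DESeq2, and 2109 at an unadjusted p under 0.05. The test bears on regions and not on mice. The log2 difference was -0.32 for *Csf1r* (SE 0.065, edgeR adjusted p = 0.17), -0.3 for *Adgre1* (SE 0.0631, edgeR adjusted p = 0.173), and -0.24 for *Mrc1* (SE 0.0894, edgeR adjusted p = 0.281), each lower in 4 of 4 regions. DESeq2 called *Csf1r* (adjusted p = 0.0136), and over the alternatives its adjusted p lay between 0.0136 and 0.589. The differences of *Timd4* (0.39, SE 0.258), *Cbr2* (0.35, SE 0.224), and *Folr2* (0.14, SE 0.119) were within the spread over regions. For *Lyve1*, *F13a1*, and *Cd163* the values were -0.25 (SE 0.255), -0.09 (SE 0.112), and 0.02 (SE 0.297).

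Against the mean of the other 3 regions, with the genotypes standing in for replicates, 4 members rose in the infarct zone and 0 fell, where 30.4% of all genes rose and 29.3% fell. The rise was 3.11-fold for *Adgre1* (log2 1.64, SE 0.0665, edgeR adjusted p = 7.14e-05), 2.51-fold for *Mrc1* (edgeR adjusted p = 0.000219), 2.41-fold for *Csf1r* (edgeR adjusted p = 0.000128), and 1.82-fold for *Cbr2* (log2 0.86, SE 0.243, edgeR adjusted p = 0.0216). The call of *Cbr2* was lost without the TKO infarct zone library (log2 0.274, edgeR adjusted p = 0.319) and without the TKO remote zone library (log2 0.722, edgeR adjusted p = 0.054). *Lyve1* (log2 0.48), *F13a1* (0.11), *Timd4* (-0.28), *Folr2* (-0.34), and *Cd163* (-0.51) did not pass. Of these, *Lyve1* and *F13a1* passed as higher with total-count scaling, which turned the signs of *Timd4*, *Folr2*, and *Cd163*, while *Folr2* passed as lower with fewer genes filtered (edgeR adjusted p = 0.0454 at a mean CPM of 0.1) and *Cd163* as lower without the TKO LV library (log2 -0.749). In bulk tissue, fewer cells of a type and less RNA per cell cannot be told apart, and cardiomyocyte markers fell in the same contrast (6 of 6, median 0.404).

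Relative to the LV of the same genotype, the 3 zones share 1 LV library per genotype. In WT, intervals lay above 1 for 4 members (41.9% of all genes) and below 1 for 2 (41%) in the infarct zone, for 3 (28.5%) and 6 (29.4%) in the border zone, and for 6 (26.9%) and 2 (25.6%) in the remote zone. In TKO the numbers were 7 (40.1%) and 1 (38.9%), 6 (25.8%) and 0 (28.4%), and 7 (23.9%) and 0 (27.2%). The TKO zones after MI thus held more members above their LV than the WT zones did, a difference that was not tested. The TKO LV library enters all of these TKO numbers. It held the lowest level of the 8 libraries for *Adgre1*, *Csf1r*, *Mrc1*, *Cd163*, *Lyve1*, and *F13a1*, but not for *Folr2*, *Timd4*, or *Cbr2*. In the infarct zone, *Adgre1* was 3.86-fold (3.48 to 4.3) in WT and 3.6-fold (3.19 to 4.06) in TKO, and *Csf1r* 3-fold and 2.93-fold. For *Cd163* the ratio was 0.443 in WT (0.394 to 0.497) and 1.5 in TKO (1.3 to 1.73), for *Lyve1* 1.04 and 2.38, and for *Cbr2* 1.23 and 2.85. In the border zone *Cd163* was at 0.558 in WT and 1.97 in TKO, and *Lyve1* at 0.559 and 1.81. In the remote zone they were at 0.864 and 2.21, and at 0.851 and 2.05. In the border and remote zones both genes thus lay below the LV in WT and above it in TKO, and the TKO LV library, the lowest for both, enters each TKO ratio. Across genotypes, the border zone against the LV gave 0.5 on the log2 scale for *Adgre1* and *Csf1r* and 0.54 for *Mrc1*, none of which edgeR called (adjusted p = 0.0731 for *Adgre1* and 0.0765 for *Csf1r*, with 0.715% of genes called), whereas DESeq2 called all 3 (adjusted p = 0.0297, 0.00233, and 0.0428, with 4.43% called). For the remote zone against the LV edgeR called 0 of 12999 genes (0%), with 1378 at an unadjusted p under 0.05, and DESeq2 called 162 (1.25%), none of them a member. Against the LV alone, the infarct zone test called the same 4 members as higher as did the test against all other regions (28.2% of genes higher).

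**Figure D3:**
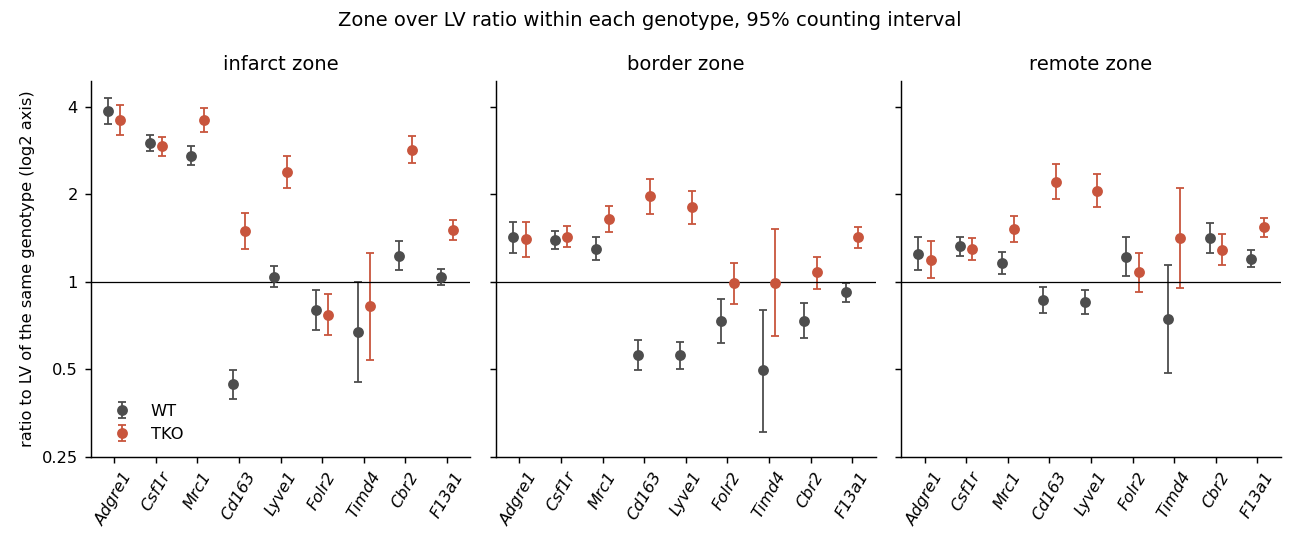
Ratio of each zone to the LV of the same genotype (vertical axis, log2), WT in grey and TKO in red, 1 library each, with exact 95% counting intervals. *Adgre1* and *Csf1r* had like ratios in both genotypes, whereas *Cd163* and *Lyve1* lay apart in all 3 zones, which share the LV library of their genotype.

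A ratio within a library needs no scaling between libraries. Counts of *Lyve1*, *Timd4*, *Folr2*, *Cd163*, and *Cbr2* together, divided by those of *Adgre1* and *Csf1r*, gave 1.51 in the WT LV (1.42 to 1.61), and for the WT zones 0.405 (infarct, 0.388 to 0.422), 0.66 (border, 0.62 to 0.703), and 1.17 (remote, 1.1 to 1.23). In TKO it was 1.14 (1.05 to 1.23), 0.713 (0.683 to 0.743), 1.13 (1.06 to 1.2), and 1.45 (1.37 to 1.55). In both genotypes the infarct zone had the lowest ratio, and TKO was higher than WT in 3 of 4 regions, by 1.76-fold in the infarct, 1.71-fold in the border, and 1.25-fold in the remote zone, and lower in the LV (0.751). *Cbr2* gave 898 of the 3217 summed counts in the WT infarct zone and 1681 of 3753 in the TKO infarct zone. With equal weight for each gene, TKO over WT was 1.63 in the infarct, 1.79 in the border, and 1.37 in the remote zone and 0.851 in the LV. Divided by *Cd68* counts instead, it was 1.9, 2.02, 1.63, and 0.582. With *Mrc1* and *F13a1* added to the sum, a choice made after the data were seen, the TKO over WT values were 1.42 in the infarct, 1.41 in the border, and 1.21 in the remote zone and 0.811 in the LV. Without them, the mean log2 difference over the 4 regions was 0.374 ± 0.571 (SD, n = 4), with p = 0.375 in an exact two-sided sign-flip permutation test in which the smallest p that 4 regions allow is above 0.05.

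**Figure D4:**
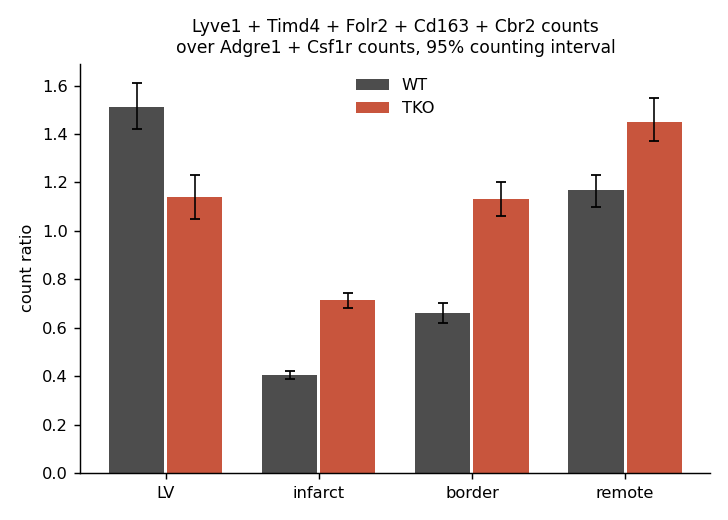
Summed counts of *Lyve1*, *Timd4*, *Folr2*, *Cd163*, and *Cbr2* over those of *Adgre1* and *Csf1r* (vertical axis, a count ratio) in each library, WT in grey and TKO in red, with exact 95% counting intervals. The ratio ran from 0.405 in the WT infarct zone to 1.51 in the WT LV, and TKO lay above WT in every region but the LV.

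The members were also read gene by gene, per 100 *Csf1r* counts of the same library. In the infarct zone *Cbr2* was at 16.4 in WT (15.2 to 17.6) and 46.2 in TKO (43.6 to 49), *Cd163* at 8.99 (8.18 to 9.86) and 16.5 (15.1 to 18), and *Timd4* at 0.984 (0.738 to 1.29) and 1.37 (1.02 to 1.82), where the intervals overlapped. In the border zone the values were 21 and 35.6 for *Cbr2*, 24.3 and 44.4 for *Cd163*, 29.7 and 47.2 for *Lyve1*, 12.9 and 22.5 for *Folr2*, and 1.56 and 3.39 for *Timd4*. In the LV the members were split, with TKO over WT at 0.532 for *Cd163* and 0.505 for *Lyve1* but 1.33 for *Folr2*, 1.19 for *Cbr2*, and 1.11 for *Timd4*. For *Ccr2*, the receptor of recruited monocytes, TKO was above WT in the LV and below it in the zones after MI: per 100 *Csf1r* counts it was at 5.66 in the WT and 10.1 in the TKO LV, 27.1 and 12.9 in the infarct zone, 19.6 and 11.2 in the border zone, and 12.7 and 9 in the remote zone.

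Other lists of macrophage genes set the members in context. The first is named for resident macrophages, but how much of its RNA came from recruited macrophages or other cells was not tested. Of its 19 genes tested, 15 rose in the infarct zone and 0 fell (median 2.31-fold). The members *Cd163*, *Folr2*, and *Timd4* did not pass in the same test. Those that rose included the complement gene *C1qb* (2.81-fold), the scavenger receptor gene *Stab1* (2.46-fold), and *Selenop* (1.63-fold), while *Vsig4* and *Ccl24* did not pass. For TKO over WT, the 19 genes had medians of 0.892 in the LV and 0.78, 0.908, and 0.858 in the infarct, border, and remote zones. Of them, 0 passed the genotype test. All 13 general macrophage and leukocyte genes that passed the expression minimum rose in the infarct zone (median 3.44-fold). Of these, *Ptprc* (0.629, edgeR adjusted p = 0.0431) and *Cd53* (0.59, edgeR adjusted p = 0.0487) were lower in TKO over the regions. *Tyrobp*, the other gene of that list, fell short of the minimum. It had 68 and 71 counts in the WT and TKO border zones and 25 in the WT remote zone. Its count was 0 in the other libraries, both infarct zone libraries among them. The 9 recruited monocyte genes all rose in the infarct zone (median 4.26-fold), with median TKO over WT ratios of 0.445 in the infarct and 0.462 in the border zone and 0 genes called between genotypes. *Chil3*, the most abundant of them, was at 92.8 CPM in the WT and 40.6 in the TKO infarct zone, and *Ccr2* at 35.1 and 13.1. Of 8 macrophage transcription factors, 7 rose in the infarct zone, among them *Spi1* (3.08-fold) and *Maf* (2.77-fold), and *Nr1h3* fell. Of 9 genes of lipid-associated macrophages, 8 rose and *Lpl*, abundant in cardiomyocytes, fell.

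**Figure D5:**
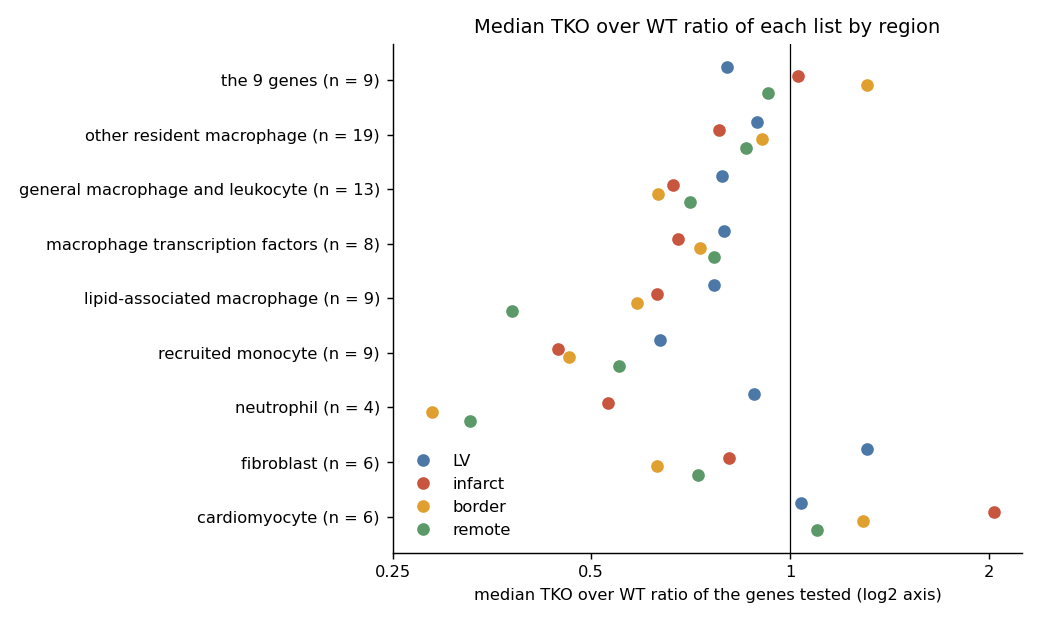
Median TKO over WT ratio (horizontal axis, log2) of the genes tested in each list, by region, with the number of genes in brackets. The 9 genes had medians of 0.803 to 1.31, and the medians of the recruited monocyte genes lay below 1 in all 4 regions (0.445 to 0.635). Single monocyte genes reached ratios of 1.44 in the LV and 1.48 in the remote zone.

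Genes of the members' own ligands and partners were counted the same way, as were markers of other cells. The shares of all genes in the infarct zone test were 30.4% rising and 29.3% falling. Of 8 genes for haemoglobin and haem handling, 4 rose in the infarct zone (*Lrp1* 4.11-fold, *Hp* 5.73-fold) and 2 fell (*Slc40a1*, *Fth1*). Of 8 hyaluronan genes, 4 rose (*Cd44* 2.86-fold) and *Hyal2* fell. None of these passed between genotypes. Of the markers for other cells in the infarct zone test, 6 of 6 fibroblast, 5 of 5 T cell, 3 of 3 B cell, 4 of 4 neutrophil, 5 of 5 red cell, 3 of 5 dendritic cell, 3 of 4 platelet, and 3 of 4 mesothelial genes rose, while 2 of 6 blood endothelial genes fell and 0 of 2 adipocyte and 0 of 2 mast cell genes passed. No eosinophil marker reached the expression minimum. Their part in the members' values was not tested.

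Across the 8 libraries, levels of *Adgre1*, *Csf1r*, and *Mrc1* ran together (Pearson's r of log2 CPM, 0.983 to 0.993), whereas *Adgre1* and *Folr2* ran apart (r = -0.676). *Lyve1* and *F13a1* had r = 0.831 and *Folr2* and *Timd4* r = 0.741. The libraries share regions and the infarct zone scaling, so these are descriptions. The genes closest to the mean profile of the members were *C5ar2* (r = 0.948), *Irag1* (0.939), *Acp2* (0.938), *Napb* (0.932), *Lepr* (0.928), *Dpep1* (0.924), *Ints8* (0.921), *Cdk19* (0.916), *Wiz* (0.915), and *Myrip* (0.911), and those closest to *Timd4* were *Dazap1* (0.934), *Gpaa1* (0.933), and *Hsd11b1* (0.931), each over 8 libraries.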

How the data were processed

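RNA of 4 cardiac regions was sequenced from WT and TKO mice, 1 library each. Per the study's methods, the authors trimmed reads with Trim Galore 0.6.5, quantified them with kallisto 0.46 against the mm10 transcriptome, and summed transcripts to genes with tximport. The deposited values are estimated counts per gene, given as whole numbers, so reads shared by near-identical transcripts were split by estimate. The 9 genes and the gene lists were chosen with earlier results of these data known.

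Counts were scaled with TMM and tested with edgeR 4.0.16 (quasi-likelihood test, Benjamini-Hochberg adjustment, threshold 0.05) in R 4.3.3, over the 12999 of 16994 genes that averaged 1 CPM or more. With 1 library per group, no pair of libraries was tested. The genotype was tested with region as a block and the regions with genotype as a block, so the p-values measure spread over regions or genotypes and not over mice. Departures compared the genotype difference of 1 region with that of the others. Ratios of 2 libraries carry exact 95% binomial intervals. By total counts, before TMM scaling, 3 counts, the limit that a count of 0 allows, correspond to 0.0888 to 0.109 CPM. The rule for named genes took all 9 members, the 3 most expressed genes of each other list, up to 4 of its called genes with the lowest p, and the 10 genes most like the members' mean profile (3 for *Timd4*). Other genes named, such as *Mertk*, *Mmrn1*, *Vsig4*, *Ccl24*, and *Nr1h3*, were chosen after their values were seen. Libraries held 27429240 to 33799249 counts. Tests were checked on simulated counts, where the departure tests recovered far fewer of the changed genes than the other tests did. The alternatives were DESeq2 1.42.0, total-count and other scalings, other expression minimums, and each library left out. Annotation was GENCODE M21 and promoters came from RefSeq (both GRCm38). No reference proteins were used here.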

Additional observations from a re-analysis of the deposited data

Results flagged for a closer look

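For 4 members the TKO over WT ratio lay below 1 in one region and above 1 in another, with counting intervals clear of 1 on both sides. The difference between the named regions was not tested in any of them, since each ratio rests on 1 library per genotype. *Cd163* was at 0.427 in the LV and 1.51 in the border zone, and *Lyve1* at 0.406 and 1.31. The test that bears on these, of the LV against the 3 zones after MI, gave edgeR adjusted p = 0.0541 for *Cd163* and 0.0773 for *Lyve1*. *Cbr2* was at 0.871 in the remote zone and 2.22 in the infarct zone, and the infarct zone against the other regions gave edgeR adjusted p = 0.425. *F13a1* was at 0.725 in the LV and 1.12 in the border zone (LV against the zones, edgeR adjusted p = 0.216).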

How the results depend on the processing

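The genotype test pairs the libraries of a region by its region block. No paired analysis by replicate number was possible because each genotype and region is 1 library and the labels give no such numbers. The rises of *Adgre1*, *Csf1r*, and *Mrc1* in the infarct zone against the other 3 regions were called under every alternative run. With 1 library per group, 29 to 72 counts for *Timd4* limit what its ratios can show, and the cause of the changes below was not tested.

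Genes called between genotypes (18) numbered 342 with DESeq2, 56 with total counts, and 3 to 83 with both libraries of a region left out. For the infarct zone against the other regions (7760) and against the LV (7385), leaving out a library gave 4479 to 8451 and 4848 to 7190. For the border zone against the LV (93) the numbers were 576 with DESeq2, 200 with total counts, and 2 to 386 with a library left out, and for the remote zone (0) 162, 18, and 0 to 65, with 3 when no gene was filtered. The departure of the infarct zone (1) gave 288 with DESeq2, and that of the LV (84) gave 280 with DESeq2, 275 with total counts, and 49 at a mean CPM of 0.1. The members' median ratio of TKO to WT in the infarct zone (1.03) was 0.844 with total counts.

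Total counts turned the sign of these log2 differences: *Cd163* between genotypes (-0.0817), in the infarct zone against the other regions (0.123) and the LV (0.281), and in the border zone (0.0706); *Folr2* (0.3 and 0.339) and *Timd4* (0.363 and 0.255) in the infarct zone; and *Lyve1* in the border zone (0.0474). The departures also turned for *Mrc1* (-0.0894), *Lyve1* (-0.0649), and *F13a1* (-0.0513) in the infarct zone and for *Folr2* in the LV (0.0701). As ratios, *Folr2* in infarct zone over LV became 1.42 in WT and 1.12 in TKO, and *F13a1* in border zone over LV became 1.01 in WT.

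With a library left out, log2 values against the LV crossed 0 in the border zone for *Cbr2* (-0.448 to 0.108), *Cd163* (-0.748 to 0.89), *F13a1* (-0.0597 to 0.443), *Folr2* (-0.485 to 0.0167), and *Lyve1* (-0.674 to 0.704). The same held in the remote zone for *Cd163* (-0.348 to 1.29), *Lyve1* (-0.285 to 1.09), and *Timd4* (-0.324 to 0.405), and in the infarct zone for *Cd163* (-1.11 to 0.524) and *Lyve1* (-0.0297 to 1.35). With both libraries of a region left out, the genotype differences crossed 0 for *Cd163* (-0.175 to 0.411), *F13a1* (-0.17 to 0.0381), and *Lyve1* (-0.465 to 0.0765).

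Calls of members also moved. *Cbr2* in infarct zone against LV (edgeR adjusted p = 0.0403) was lost without the TKO LV (0.205), without the TKO infarct zone (0.244), and with fewer genes filtered (0.0561 and 0.056). Against the other regions, *Folr2* was called lower without the WT border zone (edgeR adjusted p = 0.0306), *Cd163* lower without the TKO LV (0.00274), and *Lyve1* higher without the WT LV (0.0028). Against the LV alone, *Cd163* was called lower without the TKO LV (log2 -1.11, edgeR adjusted p = 0.00392) and *Lyve1* higher without the WT LV (log2 1.35, edgeR adjusted p = 0.00462). *F13a1* was called higher against the LV without the WT LV (edgeR adjusted p = 0.0138), as was *Mrc1* in the border zone (0.0453).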
